A study of Homo sapiens with 30 samples.

Results

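The 42 genes described here encode heterogeneous nuclear ribonucleoproteins (hnRNPs) and other RNA-binding proteins, many of them rich in arginine and glycine. They were taken from the count table by gene symbol and were 42 of its 58780 genes. All 42 passed the filter on low counts that left 22919 genes for testing. By role they comprised 7 A/B-type hnRNPs, 4 F/H-type hnRNPs, 8 other core hnRNPs, 3 U-type hnRNPs, 3 proteins of the FET and STAR families, 2 cold-inducible proteins, 8 stress granule and translation factors, 2 paraspeckle proteins, 2 poly(A)-binding proteins, and 3 genes for an export adaptor and DEAD-box helicases.

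hnRNPs coat nascent transcripts and take part in splicing, polyadenylation, export and RNA decay. Many carry arginine-glycine repeats whose arginines are methylated, asymmetrically by Type I arginine methyltransferases such as PRMT1 and symmetrically by the Type II enzyme PRMT5. The genes themselves are widely and highly transcribed in dividing cells, and several control the splicing of their own pre-mRNA.

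The assay was PRO-seq (precision run-on sequencing), in which engaged polymerases of permeabilised cells add a labelled nucleotide to the RNA they are making. The cells were A549, a human lung adenocarcinoma line. All groups, untreated cells included, had 0.01% DMSO, and each of the 15 groups had 2 replicate libraries. The untreated group is labelled with a time of 15 min and served as the control for every treatment time. Dexamethasone (Dex, a synthetic glucocorticoid) was given at 100 nM for 15 min or 3 h. GSK591, an inhibitor of PRMT5, and MS023, an inhibitor of Type I enzymes, were each given at 1 µM, either together with Dex for 3 h, or alone for 2, 4 or 7 days, or for 7 days with Dex added at the end (15 min or 3 h). The labels name no genetic change and do not say whether the replicates came from separate cultures, so p-values measure only the spread between these libraries. In a bulk library, fewer cells transcribing a gene and less nascent RNA per cell cannot be told apart. The labels give no untreated group for 3 h or for 2, 4 or 7 days. Against untreated cells, a treatment of these lengths and the time in culture therefore cannot be told apart. Comparisons of an inhibitor alone with untreated cells all rest on the same 2 untreated libraries.

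Total counts ran from 8441211 to 13069598 per library, of which mitochondrial genes took 58.7% to 78.7%. The members together held 13077 to 29445 counts per library, and a single member had at least 26 and at most 4198 counts. All 9 A549 markers passed the filter and summed to between 2670 and 5270 in counts-per-million units (CPM, here of nuclear counts). Of 9 markers of blood, endothelial, fibroblast and liver cells, 3 passed (PECAM1, CDH5 and COL1A1), PTPRC, CD3E and HBB had at most 5 counts in any library, and the 9 summed to between 11.1 and 39.7. The known Dex targets TSC22D3 and PER1 were higher after 3 h of Dex by 2.89 and 1.88 on the log2 scale. Replicate 2 of Dex with MS023 stood apart. Processed pseudogenes took 2.02% of its nuclear counts, against 1.26% to 1.60% in the other libraries, and it correlated with its replicate at r = 0.921 across genes. HNRNPM stood there at 77.5 CPM of TMM-scaled library size, the unit used from here on, against 24.9 in replicate 1, and HNRNPR at 47.1 against 15.6. Counts of members called are therefore also given without it.

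The hexamer CACGTG, a palindrome known as the core of E-boxes bound by factors such as MYC, was among several short motifs looked for around the members' starts. Sites are printed for this motif only, and members moving together does not single it out from the other motifs searched. Binding of any factor, and a shared cause of the members' changes, was not tested. RefSeq promoter windows (build GRCh38.p14, 250 bases before to 50 after the first listed start) were matched by symbol for 38 of 42 members, and not for PABPC1, HNRNPA1, TAF15 and SFPQ. CACGTG lay in 10 of the 38 windows (26.3%), in 7.43% of all 27305 windows and in 9.71% of the 11812 windows of tested protein-coding genes. The site nearest the start of each is shown with 12 bases on either side, 5′ to 3′ on the gene's strand, with CACGTG in capitals.
DDX5: gggtggtacagcCACGTGacaacgccaggc
FMR1: aacagcgttgatCACGTGacgtggtttcag
HNRNPD: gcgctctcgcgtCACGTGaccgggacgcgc
HNRNPDL: agaggcccggggCACGTGcagaaaggagcc
HNRNPH2: gacgtaggcgctCACGTGattactcgctta
HNRNPH3: tgccggtcgaacCACGTGgggccctttccg
HNRNPM: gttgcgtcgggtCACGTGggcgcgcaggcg
HNRNPUL1: aacctctgggccCACGTGagtgtctgtccc
KHDRBS1: ctagcgccgagtCACGTGgaaaacgaaacg
SYNCRIP: cgccccgggggaCACGTGcgcctgcagctt

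These 30-base stretches lie, in the same order, at chr17:64506651-64506680 (minus strand), chrX:147911857-147911886 (plus), chr4:82374001-82374030 (minus), chr4:82430364-82430393 (minus), chrX:101408201-101408230 (plus), chr10:68331631-68331660 (plus), chr19:8444921-8444950 (plus), chr19:41262568-41262597 (plus), chr1:32013631-32013660 (plus) and chr6:85643851-85643880 (minus). HNRNPH2 and KHDRBS1 had 2 sites in their window and the others 1. In DDX5, FMR1, HNRNPD, HNRNPH2, HNRNPH3 and HNRNPM the hexamer began 9 to 50 bases before the start. In HNRNPDL and KHDRBS1 it began 156 and 225 bases before it, and in SYNCRIP and HNRNPUL1 2 and 23 bases after it. Of the 8 other short motifs, searched as these letters or their reverse complement, 3 lay in more of the members' windows than CACGTG did. CCAAT lay in 21 of 38 members' windows (55.3%, against 36.0% of those of tested protein-coding genes), CCGGAA in 13 (34.2%, against 27.2%) and GGGCGG in 28 (73.7%, against 67.8%). The other 5 lay in fewer, with TATAAA in 5 (13.2%, against 6.26%), the NRF1 motif in 6 (15.8%, against 10.5%), AAGATGGC in 1 (2.63%, against 4.87%), the BANP motif in 1 (2.63%, against 0.838%) and TGACGTCA in 0 (against 3.08%). A match is a description of the letters in the window.

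In untreated cells, levels per kilobase of annotated exon spanned from 0.707 CPM per kb for FMR1, whose protein is lost in fragile X syndrome, to 42.3 for HNRNPA2B1, a core protein of hnRNP particles. Exon length was used because the sources used here do not say which feature was counted. The median over members was 6.63 CPM per kb. After HNRNPA2B1 (47.5 and 37.1 in the 2 replicates) came HNRNPAB (30.2 and 38.1), and the libraries of these neighbours overlapped. TAF15 (33.3 and 28.1) overlapped HNRNPAB. HNRNPL (20.7 and 19.4) and HNRNPF (18.7 and 19.9) overlapped each other, and HNRNPA1 (18.5 and 18.1) lay just below both. At the low end FXR1, HNRNPUL2 and FMR1 stood at 1.28, 1.23 and 0.707 CPM per kb.

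As a share of nuclear counts (all but mitochondrial and ribosomal RNA genes), the 42 members were higher in untreated cells than with either inhibitor alone. The lower and higher library had 0.747% and 0.781% in untreated cells, 0.517% and 0.545% after 7 days of GSK591, and 0.645% and 0.661% after 7 days of MS023. After 3 h of Dex they had 0.582% and 0.622%. All 12 libraries with an inhibitor alone lay below both untreated libraries. The lowest shares, 0.462% and 0.503%, were those of 3 h of Dex after GSK591, and the highest, 0.854%, was that of replicate 2 of Dex with MS023. The share of processed pseudogenes was 1.39% and 1.51% in untreated cells and 1.26% to 1.46% with an inhibitor alone, and its part in the members' lower share was not tested.

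**Figure D1:**
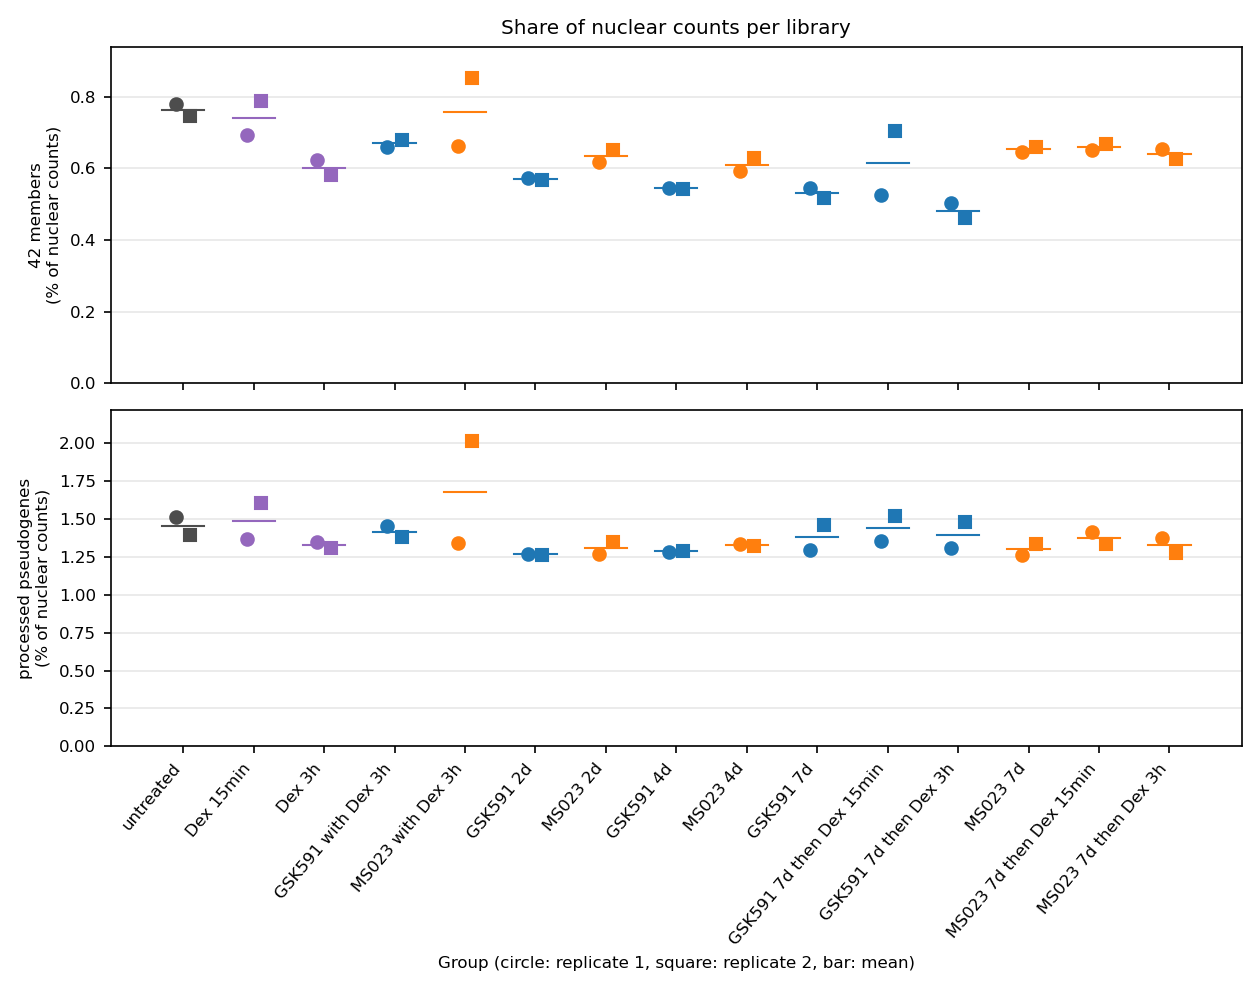
Share of nuclear counts (%) held by the 42 members (top) and by processed pseudogenes (bottom) in each library, by group; circles are replicate 1, squares replicate 2 and bars group means. The members' share lies at 0.747% and 0.781% in untreated cells and at or below 0.661% in all 12 libraries with an inhibitor alone, and replicate 2 of Dex with MS023 is the highest library in both panels.

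A first question was how the members stood after GSK591, beside the shared untreated libraries. With GSK591 the members were mostly lower than in untreated cells under scaling by the trimmed mean of M values (TMM), which sets the median of all genes near 0. At 2 days 10 of 42 members were called lower (edgeR quasi-likelihood test with Benjamini-Hochberg adjusted p below 0.05 over all genes tested), beside 2.45% of all genes called lower and 5.64% called in either direction, and 1 was higher. At 4 days 28 were lower (8.28% of all genes lower, 17.2% called) and 1 was higher. At 7 days 20 were lower (6.52% lower, 13.2% called) and 0 were higher. The members' median log2 fold changes were -0.35, -0.62 and -0.50, beside 0.00 for all genes at each time, and 36, 38 and 39 of 42 lay below 0.

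The counts of members called with GSK591 depended on single libraries. At 2 days the 11 calls became 2 without replicate 1 of the untreated cells, 5 without their replicate 2, 3 and 2 without replicate 1 and 2 of GSK591, and 17 without replicate 2 of Dex with MS023. At 4 days the 29 calls became 19 without replicate 1 of the untreated cells, 15 without replicate 1 of GSK591 and 33 without replicate 2 of Dex with MS023. At 7 days the 20 calls became 11 when replicate 1 of the untreated cells was left out, 10 and 12 for replicate 1 and 2 of GSK591, and 25 for replicate 2 of Dex with MS023. When libraries were scaled by the total count of all genes, the median of all genes shifted by 0.29, 0.42 and -0.03. Members called lower then numbered 1, 3 and 5, and those called higher 0, 2 and 0.

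With MS023 the members were again mostly lower under TMM scaling, but not under scaling by total counts. At 2, 4 and 7 days 12, 23 and 16 of 42 members were called lower under TMM scaling (edgeR quasi-likelihood test, Benjamini-Hochberg), whereas scaling by the total count of all genes shifted the median of all genes by 0.67, 0.74 and 1.02 and gave 0 members lower and 13, 9 and 22 higher. Under total-count scaling the members' medians were 0.36, 0.21 and 0.58, beside 0.68, 0.74 and 1.02 for all genes. Relative to the median of all genes, 34, 39 and 38 of 42 members were below it. Scaling moves all genes of a comparison by nearly the same amount. This count could therefore hardly differ between scalings and is not a check of them. Of all genes, 4.21%, 6.37% and 6.51% were called lower and 10.4%, 14.2% and 13.6% in either direction under TMM. The members' median log2 fold changes under TMM were -0.32, -0.53 and -0.44. Under scaling by the total of nuclear genes, where the shift was 0.15, 0.29 and 0.32, 7, 10 and 6 members were lower and 1, 2 and 3 higher. Mitochondrial genes, which are part of the total of all genes, took a mean of 74.7% of counts in untreated cells. With MS023 they took 63.6%, 65.5% and 59.1% at 2, 4 and 7 days, and their part in the shifts was not tested.

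Single libraries moved these counts as well. At 2 days of MS023 the 13 calls became 1 when replicate 1 of the untreated cells was left out, and 2 and 5 for replicate 1 and 2 of MS023. At 4 days the 24 calls became 9 when replicate 1 of the untreated cells was left out, and 8 for replicate 1 of MS023. At 7 days the 16 calls became 9, 9 and 10 without replicate 1 of the untreated cells, replicate 1 and replicate 2 of MS023. Without replicate 2 of Dex with MS023, the counts were 19, 30 and 22.

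Over the 6 comparisons of an inhibitor with the shared untreated libraries, 31 members were called lower at least once under TMM, beside 17.2% of all genes tested, and 4 in all 6, beside 0.301%. These 4 were HNRNPA1, HNRNPA2B1, TAF15 and EWSR1. Members never called in any of the 6 numbered 8, namely CIRBP, DDX17, FMR1, FXR1, HNRNPR, HNRNPUL1, HNRNPUL2 and NONO. FXR2, PABPN1 and HNRNPLL were called only as higher. Of the 10 members with CACGTG in the promoter window 8 were called lower at least once, and of the 28 with a window without it 19, beside 22.5% and 20% of tested protein-coding genes with and without it. Under total-count scaling 0 members were called lower at any time of MS023. No lower call with MS023 given below therefore held under that scaling. With GSK591 1, 3 and 5 members were called lower under it at 2, 4 and 7 days, so most lower calls with GSK591 were lost as well. Which of them held is not given below.

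**Figure D2:**
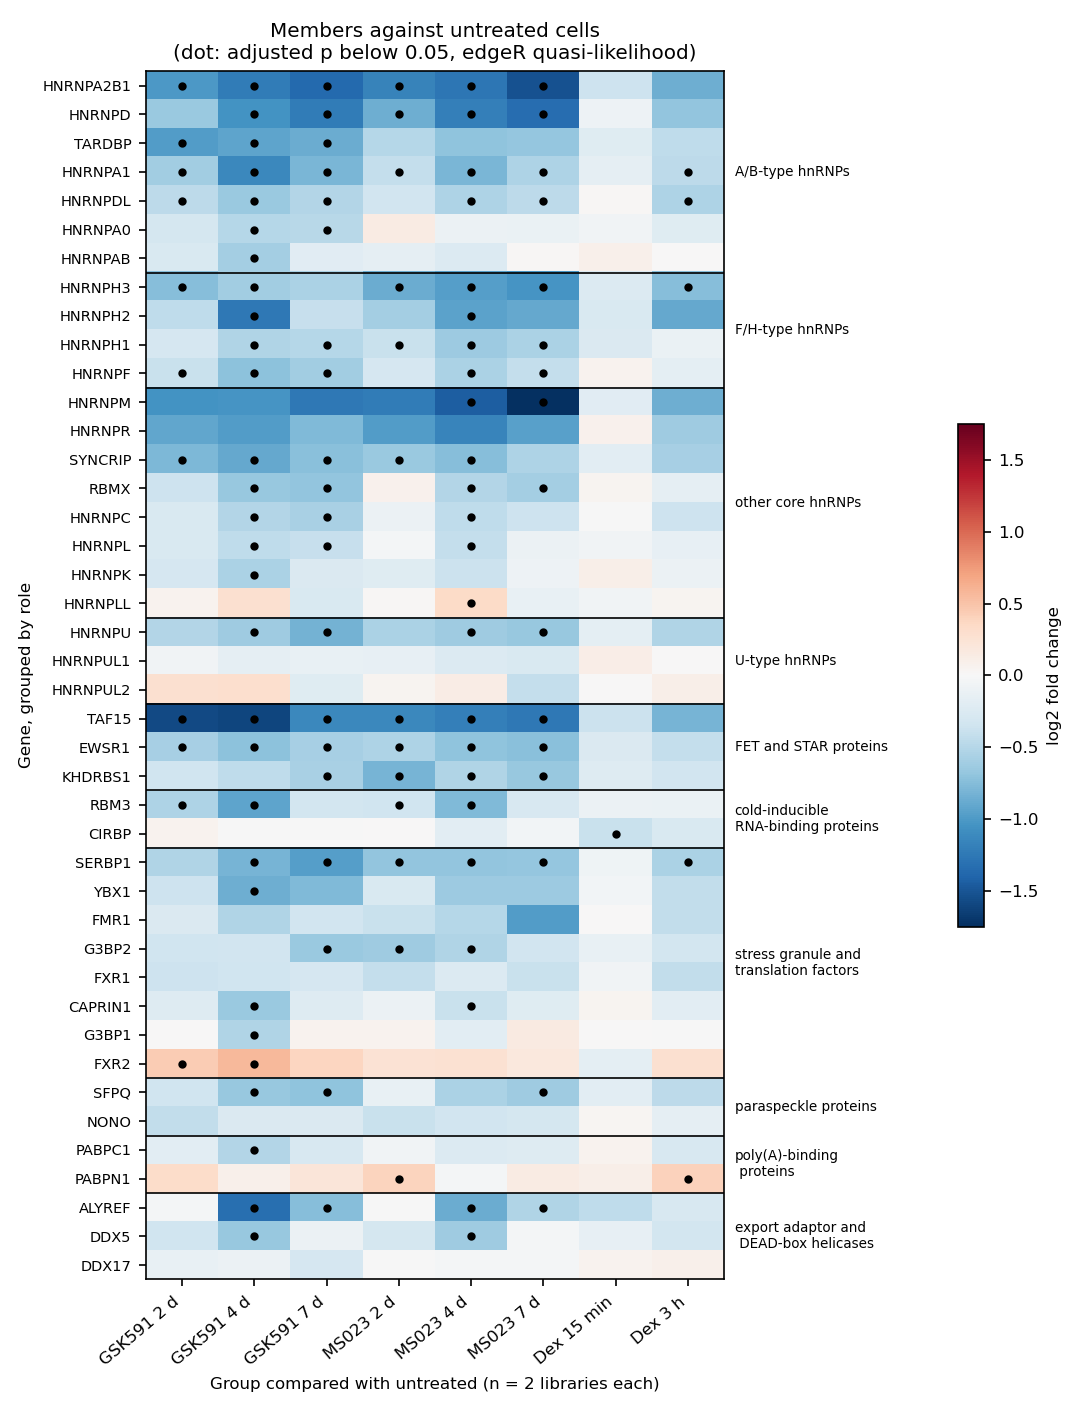
Log2 fold change against untreated cells for each member (rows, grouped by role) in 8 groups (columns, n = 2 libraries each) under TMM scaling, where blue is lower, red is higher and a dot marks an adjusted p below 0.05 in edgeR's quasi-likelihood test. HNRNPA1, HNRNPA2B1, TAF15 and EWSR1 carry a dot in all 6 inhibitor columns, and FXR2 is red in all of them. Under scaling by total counts of all genes the MS023 columns shift upward by 0.67 to 1.02. The GSK591 columns then shift by 0.29, 0.42 and -0.03 at 2, 4 and 7 days, and the Dex columns by 0.32 and 0.16 at 15 min and 3 h.

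The A/B-type hnRNPs bind nascent pre-mRNA through paired RNA recognition motifs. Of the 7, 4, 7 and 6 were lower at 2, 4 and 7 days of GSK591, and 3, 4 and 4 with MS023 under TMM. HNRNPA2B1 (ENSG00000122566.21, chr7:26173057-26201529, minus strand, GENCODE 29 on GRCh38) stood at 440 and 344 CPM in untreated cells. Its libraries of 2, 4 and 7 days had 218 and 173, 156 and 179, and 141 and 164 CPM with GSK591. With MS023 they had 162 and 186, 151 and 176, and 123 and 149 CPM. All 12 treated libraries lay below both untreated ones. Its log2 fold change was -1.36 at 7 days of GSK591 (SE 0.277, adjusted p = 0.00358 in edgeR's quasi-likelihood test, Benjamini-Hochberg) and -1.53 at 7 days of MS023 (SE 0.277, adjusted p = 0.00143, same test). The call at 7 days of GSK591 was lost without replicate 1 of GSK591 (adjusted p = 0.0508). The call at 7 days of MS023 held when any of the 4 libraries compared was left out, and under total-count scaling the value stayed below 0 and was not called. At 2 days of GSK591 the value was -1.01 and the call was lost without any 1 of the 4 libraries (adjusted p between 0.0840 and 0.289), and at 4 days (-1.23) without replicate 1 of the untreated cells or of GSK591 (0.0608 and 0.0661). With MS023 the call at 2 days was lost without replicate 1 of the untreated cells or either library of MS023 (adjusted p between 0.0623 and 0.117), and that at 4 days without replicate 1 of the untreated cells or of MS023 (0.0665 and 0.0671).

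HNRNPA1 (ENSG00000135486.17, chr12:54280193-54287088, plus strand), which is closely related to HNRNPA2B1, had tight replicates. It stood at 94.2 and 92.0 CPM in untreated cells, 41.7 and 43.2 at 4 days of GSK591 and 52.9 and 54.2 at 4 days of MS023. The log2 fold changes at 4 days were -1.13 (SE 0.098, adjusted p = 1.93e-12 in edgeR's quasi-likelihood test, Benjamini-Hochberg) with GSK591 and -0.80 (SE 0.096, adjusted p = 1.50e-08) with MS023. At 7 days they were -0.80 and -0.54. The count of HNRNPA1 is uncertain, since 74 genes named as its pseudogenes held 28.2% of the counts on the gene and its pseudogenes together. HNRNPA1 was lower by 0.33 with GSK591 than with MS023 at 4 days (SE 0.0984, adjusted p = 0.0293), a call that was lost when pseudogene counts were added and without any 1 of the 4 libraries (adjusted p between 0.107 and 0.221).

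HNRNPD, an AU-rich element binding protein also known as AUF1, stood at 49.4 and 47.4 CPM in untreated cells (chr4:82352498-82374503, minus strand). It stood at 18.5 and 23.0 CPM at 7 days of GSK591 and 18.6 and 19.8 at 7 days of MS023, so that all 4 libraries lay far below both untreated ones. Its log2 fold changes were -1.22 (SE 0.250, adjusted p = 0.00329 in edgeR's quasi-likelihood test, Benjamini-Hochberg) and -1.34 (SE 0.239, adjusted p = 0.00110). The first was lost without replicate 1 of GSK591 (adjusted p = 0.0560). Its paralog HNRNPDL was lower in 5 of 6 comparisons, by 0.46 to 0.65 on the log2 scale where called. TARDBP, which encodes TDP-43, was lower at all 3 times of GSK591 (-0.98, -0.92 and -0.87) and was not called with MS023 (-0.50, -0.70 and -0.68). The calls of TARDBP at 2 and 7 days were lost without 3 and 4 of the 4 libraries in turn (adjusted p between 0.0521 and 0.341), and the difference between the inhibitors was not called at any time. Its exons share 29.0% of their bases with another gene on the same strand, so its counts are uncertain.

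HNRNPA0, a gene without introns in GENCODE 29 (8726 bases of exon over 8726 bases of gene), separated the inhibitors at every time. It stood at 52.6 and 56.2 CPM in untreated cells. With GSK591 its libraries stood at 43.6 and 44.4, 39.6 and 37.7, and 40.3 and 37.1 CPM at 2, 4 and 7 days, and with MS023 at 57.4 and 63.1, 48.2 and 53.0, and 50.1 and 50.4 CPM. At each time both libraries with GSK591 were lower than both with MS023. The log2 differences of GSK591 from MS023 were -0.46 (SE 0.109, adjusted p = 0.00960), -0.39 (SE 0.108, adjusted p = 0.0184) and -0.37 (SE 0.110, adjusted p = 0.0210, all by edgeR's quasi-likelihood test with Benjamini-Hochberg adjustment). Each of these calls was lost without at least 3 of the 4 libraries in turn (adjusted p between 0.0649 and 0.262). HNRNPAB was called at 4 days of GSK591 alone (-0.59), where it stood at 49.7 and 47.7 CPM against 64.8 and 81.7 in untreated cells.

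All 4 F/H-type hnRNPs, which bind G-rich RNA, were lower at 4 days of either inhibitor under TMM. HNRNPH3 stood at 82.2 and 67.8 CPM in untreated cells and at 37.7 and 35.5 at 7 days of MS023, a log2 fold change of -1.03 (SE 0.202, adjusted p = 0.00191 in edgeR's quasi-likelihood test, Benjamini-Hochberg) that held without any 1 of the 4 libraries. HNRNPH3 was not called lower there under total-count scaling, which shifted the median of all genes by 1.02, nearly the size of this change. At 7 days of GSK591 it stood at 48.0 and 54.0 CPM (-0.56, adjusted p = 0.0829). HNRNPH1 stood at 168 and 153 CPM in untreated cells and at 103 and 104 at 4 days of MS023 (-0.63, SE 0.111, adjusted p = 4.14e-05). HNRNPF was lower in 5 of 6 comparisons, most at 4 days of GSK591 (37.5 and 38.6 CPM against 60.8 and 64.6, -0.72). HNRNPH2 was lower at 4 days only (-1.25 with GSK591 and -0.94 with MS023). Its level was low, at 7.56 and 7.46 CPM in untreated cells, 16.3% of its exonic bases are shared with another gene on the same strand, and the call with GSK591 was lost without replicate 1 or 2 of the untreated cells or replicate 1 of GSK591 (adjusted p between 0.0516 and 0.150).

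Among the 8 other core hnRNPs, HNRNPM, a splicing regulator (chr19:8444767-8489114, plus strand), had the largest log2 fold change of any member in the 6 comparisons. It stood at 53.2 and 43.5 CPM in untreated cells and at 14.0 and 14.8 at 7 days of MS023, a fall of 1.74 on the log2 scale (SE 0.422, adjusted p = 0.0114 in edgeR's quasi-likelihood test, Benjamini-Hochberg). This fall was lost without replicate 1 of the untreated cells or either library of MS023 (adjusted p between 0.0761 and 0.0883), and under total-count scaling it stayed below 0 and was not called. At 7 days of GSK591 HNRNPM stood at 19.3 and 21.3 CPM, also below both untreated libraries, with a log2 fold change of -1.25 that was not called (SE 0.430, adjusted p = 0.0691). The difference between the inhibitors at 7 days, 0.49, was not called. At 4 days of MS023 the value was -1.45, and that call was lost without any 1 of the 4 libraries (adjusted p between 0.0688 and 0.206). HNRNPR stood at 10.8 and 12.8 CPM at 7 days of MS023 against 22.6 and 22.8 in untreated cells but was never called, with an SE of 0.389 to 0.415 over the 6 comparisons.

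SYNCRIP, a relative of HNRNPR, was called in 5 of 6 comparisons, most at 4 days of GSK591 (11.4 and 13.4 CPM against 25.5 and 20.7, -0.89). HNRNPC, which binds uridine tracts, HNRNPL, which binds CA repeats, and HNRNPK, which binds C-rich RNA, were lower at 4 days of GSK591 by 0.52, 0.45 and 0.55 on the log2 scale. Of these, HNRNPC was called lower at 7 days with GSK591 (15.2 and 14.2 CPM against 20.2 and 23.3, -0.56) and not with MS023 (-0.37, adjusted p = 0.0907 in edgeR's quasi-likelihood test, Benjamini-Hochberg). HNRNPL was also called lower at 7 days with GSK591 (101 and 104 CPM against 141 and 132) and not with MS023 (126 and 129 CPM). The difference between inhibitors was called for HNRNPL at that time (-0.31, SE 0.0969, adjusted p = 0.0334 in edgeR's quasi-likelihood test, Benjamini-Hochberg) and was lost without any 1 of the 4 libraries (adjusted p between 0.128 and 0.202). RBMX, a splicing factor encoded on the X chromosome, stood at 25.5 and 24.8 CPM in untreated cells, 28.6 and 24.5 at 2 days of MS023 and 16.8 and 16.4 at 7 days. Its change from 2 to 7 days of MS023 was -0.67 (SE 0.135, adjusted p = 0.00047) and held without any 1 of the 4 libraries. Under scaling by the total count of all genes, which shifted the median of all genes by 0.34 there, it was not called. HNRNPLL was higher at 4 days of MS023 only (39.6 and 42.5 CPM against 31.0 and 34.2, 0.33), a call lost without any 1 of the 4 libraries (adjusted p between 0.0874 and 0.340).

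Of the U-type hnRNPs, HNRNPU, a scaffold attachment factor, was called lower at 4 and 7 days of both inhibitors under TMM. It stood at 156 and 137 CPM in untreated cells, 80.4 and 84.7 at 7 days of GSK591 and 94.0 and 90.3 at 7 days of MS023. Exons of a gene on the opposite strand cover 15.6% of its exonic bases. HNRNPUL1 and HNRNPUL2 were never called. HNRNPUL1 stood within 63.0 to 99.6 CPM over all 30 libraries, and HNRNPUL2 shares 44.2% of its exonic bases with another gene on the same strand.

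TAF15 and EWSR1, FET proteins that associate with RNA polymerase II and are known targets of arginine methylation, were lower in all 6 comparisons under TMM. TAF15 (ENSG00000270647.5, chr17:35713791-35864615, plus strand) stood at 197 and 166 CPM in untreated cells. It stood at 69.9 and 52.2, 61.0 and 58.4, and 80.6 and 85.6 CPM at 2, 4 and 7 days of GSK591, and at 79.4 and 86.2, 68.1 and 90.5, and 70.1 and 82.4 CPM with MS023. The highest of these 12 libraries, at 90.5 CPM, lay below both untreated ones. The log2 fold change at 4 days of GSK591 was -1.60 (SE 0.259, adjusted p = 0.000396 in edgeR's quasi-likelihood test, Benjamini-Hochberg) and held without any 1 of the 4 libraries. At 7 days it was -1.13 with GSK591 and -1.25 with MS023, where the call was lost without replicate 1 of MS023 (adjusted p = 0.0513) and, for GSK591, without replicate 1 of the untreated cells or of GSK591 (adjusted p between 0.0633 and 0.0703). The call at 2 days of GSK591 was lost without replicate 2 of GSK591 (adjusted p = 0.0516). With MS023 the call at 2 days was lost without replicate 1 of the untreated cells or either library of MS023 (adjusted p between 0.0587 and 0.0898), and that at 4 days without replicate 1 of the untreated cells or of MS023 (0.0514 and 0.0702). EWSR1 stood at 38.1 and 34.3 CPM in untreated cells and between 20.1 and 27.6 in the 12 libraries, with log2 fold changes from -0.54 to -0.73. KHDRBS1, the STAR protein Sam68, was lower at all 3 times of MS023 and at 7 days of GSK591 under TMM, most at 2 days of MS023 (9.29 and 10.2 CPM against 19.5 and 14.8, -0.81), a call lost without replicate 1 of the untreated cells or of MS023 (adjusted p 0.126 and 0.0659).

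**Figure D3:**
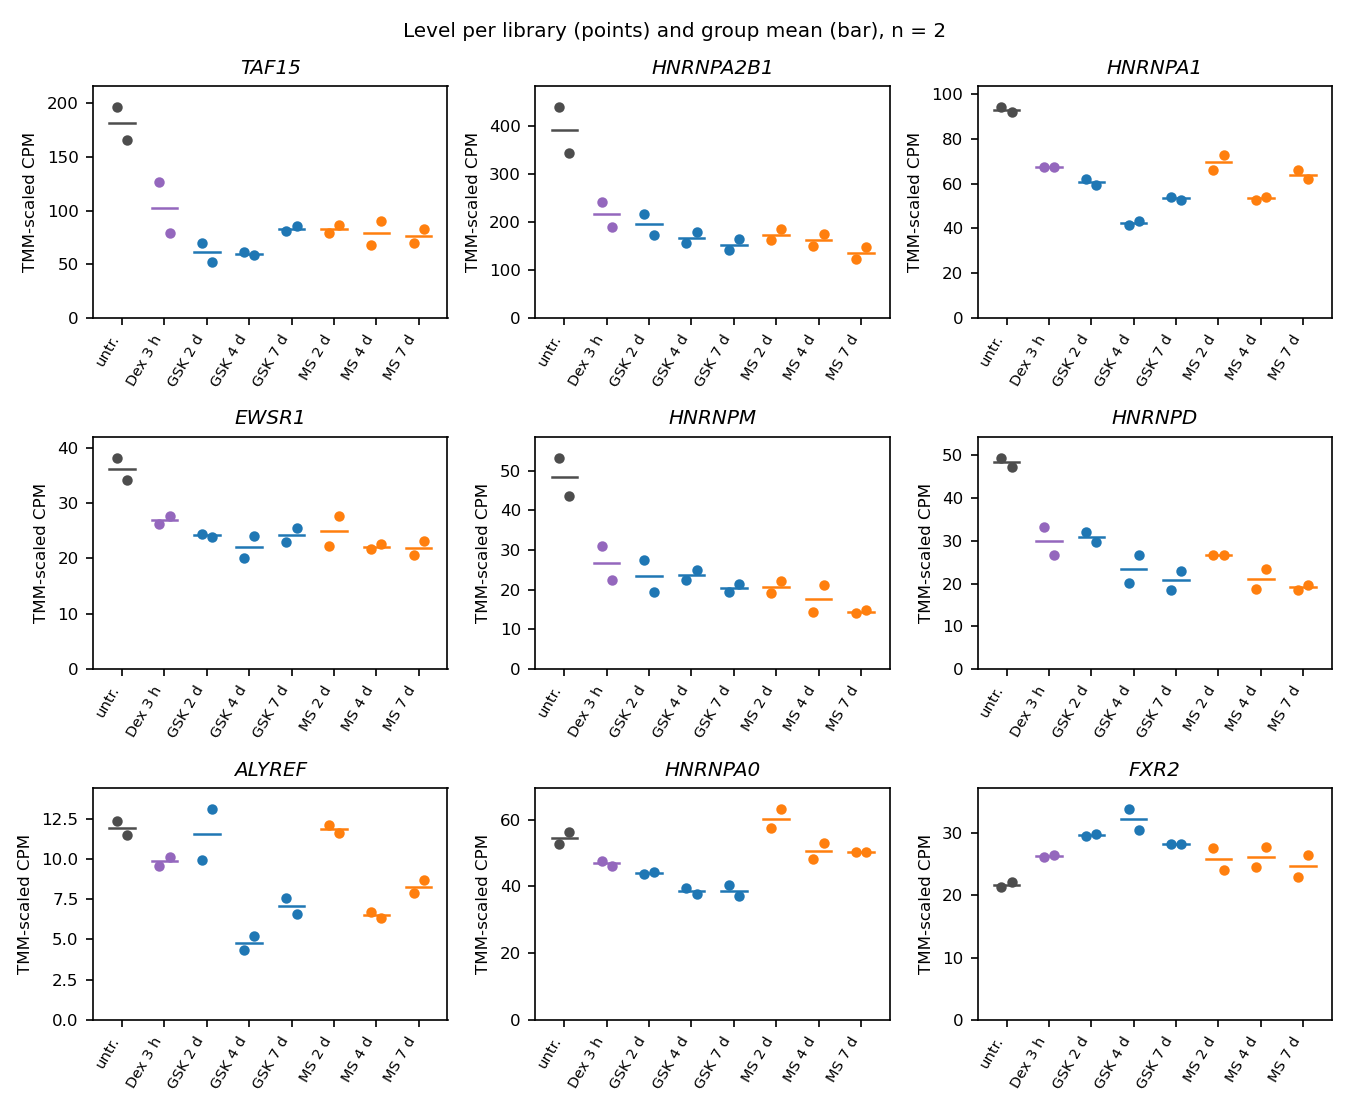
TMM-scaled CPM per library (points) and group mean (bar) of 9 members in untreated cells, after 3 h of Dex and over the time course of GSK591 and MS023, n = 2 libraries a group. TAF15, HNRNPA2B1, EWSR1 and HNRNPD lie below both untreated libraries in every treated group shown. HNRNPA0 is lower with GSK591 than with MS023, FXR2 is higher with GSK591, and ALYREF is lower at 4 and 7 days but not at 2. Scaling by total counts would raise the MS023 groups by 0.67 to 1.02 on the log2 scale. It would shift GSK591 by 0.29, 0.42 and -0.03 at 2, 4 and 7 days and 3 h of Dex by 0.16.

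The 2 cold-inducible genes differed from each other. RBM3 stood at 51.5 and 47.7 CPM in untreated cells, 23.9 and 28.5 at 4 days of GSK591 (-0.92, SE 0.121, adjusted p = 1.10e-07 in edgeR's quasi-likelihood test, Benjamini-Hochberg) and 27.6 and 30.5 at 4 days of MS023 (-0.77, adjusted p = 3.20e-06). At 7 days, with 37.0 and 42.5 CPM in GSK591 and 38.7 and 42.8 in MS023, it was not called. CIRBP was not called with either inhibitor, and its 12 libraries spanned 68.8 to 87.8 CPM around untreated values of 81.7 and 79.5.

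Of the 8 stress granule and translation factors, SERBP1, an mRNA-binding protein also found on ribosomes, was called in 5 of 6 comparisons. It stood at 32.4 and 26.0 CPM in untreated cells and at 15.5 and 14.5 at 7 days of GSK591 (-0.96, SE 0.191, adjusted p = 0.000765 in edgeR's quasi-likelihood test, Benjamini-Hochberg), a call that held without any 1 of the 4 libraries. For SERBP1 22.3%, and for YBX1 30.4%, of the counts on gene and named pseudogenes lay on pseudogenes, so both are uncertain. G3BP1 and CAPRIN1, partners in stress granule assembly, were lower at 4 days of GSK591 (-0.52 and -0.65). G3BP1 stood there at 24.4 and 23.1 CPM, and at 40.1 and 30.4 at 7 days, against 33.8 and 34.3 in untreated cells. G3BP2 was lower at 7 days of GSK591 and at 2 and 4 days of MS023.

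The fragile X family, whose 3 members bind ribosome-associated mRNAs, did not move as one. FXR2 (chr17:7591230-7614871, minus strand) stood at 21.4 and 22.1 CPM in untreated cells, 29.4 and 29.9 at 2 days of GSK591, 33.8 and 30.5 at 4 days and 28.1 at 7 days in both libraries. Both libraries were above both untreated ones at each time. Its log2 fold change was 0.57 at 4 days (SE 0.135, adjusted p = 0.00195 in edgeR's quasi-likelihood test, Benjamini-Hochberg), lost without replicate 1 of GSK591 (adjusted p = 0.0581), and 0.45 at 2 days, lost without any 1 of the 4 libraries (adjusted p between 0.153 and 0.234). FXR1 (-0.24 to -0.42) and FMR1 (-0.25 to -0.97) were never called.

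SFPQ and NONO, which form heterodimers in paraspeckles, were below untreated levels in all 6 comparisons. SFPQ was called at 4 and 7 days of GSK591 and at 7 days of MS023 (-0.66, -0.70 and -0.62), and NONO was not called. Of the poly(A)-binding proteins, the cytoplasmic PABPC1 was lower at 4 days of GSK591 (53.3 and 53.1 CPM against 75.9 and 76.3, -0.52). The nuclear PABPN1, which shares 16.9% of its exonic bases with another gene on the same strand, was higher at 2 days of MS023 (62.7 and 58.0 CPM against 43.7 and 48.1, 0.39), a call lost without replicate 1 of the untreated cells or of MS023 (adjusted p 0.209 and 0.191).

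ALYREF, an adaptor that loads export factors on mRNA, was level at 2 days and lower later. It stood at 12.3 and 11.5 CPM in untreated cells, 9.95 and 13.1 at 2 days of GSK591, 4.32 and 5.21 at 4 days and 7.56 and 6.57 at 7 days. With MS023 it stood at 12.1 and 11.6, 6.68 and 6.34, and 7.86 and 8.69 CPM. Its log2 fold change at 4 days was -1.32 with GSK591 (SE 0.198, adjusted p = 1.83e-06 in edgeR's quasi-likelihood test, Benjamini-Hochberg), which held without any 1 of the 4 libraries, and -0.87 with MS023 (SE 0.181, adjusted p = 0.000488). DDX5, an RNA helicase, was lower at 4 days of each inhibitor (63.1 and 62.7, and 62.2 and 66.6 CPM, against 103 and 95.9) and stood at 87.7 and 97.0, and 98.3 and 96.1 CPM, at 7 days. Its paralog DDX17 was not called.

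Tested directly over time, 1 member differed between 7 and 2 days of GSK591, beside 8.39% of all genes, and 2 between 7 and 2 days of MS023, beside 13.2%. ALYREF was lower at 7 than at 2 days of GSK591 by 0.71 on the log2 scale (SE 0.198, adjusted p = 0.0159 in edgeR's quasi-likelihood test, Benjamini-Hochberg) and by 0.52 with MS023 (SE 0.175, adjusted p = 0.0383). The first of these was lost without replicate 2 of GSK591 at 2 days or either library at 7 days (adjusted p between 0.0533 and 0.317), and the second without any 1 of the 4 libraries (adjusted p between 0.108 and 0.233). RBMX was the other member with MS023. Between the inhibitors, 1, 2 and 2 members were called at 2, 4 and 7 days, beside 2.69%, 6.03% and 9.38% of all genes. These were HNRNPA0 at each time, HNRNPA1 at 4 days and HNRNPL at 7 days, all lower with GSK591. Under scaling by total counts of all genes, which shifted the median of all genes by -1.04 in this comparison, 38 members were called at 7 days. The members' median was then -1.09, beside -1.07 for all genes. The share of all genes called under this scaling is not given here.

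A second question was how the members stood after Dex. After 15 min 1 member, CIRBP, was called (63.8 and 59.5 CPM against 81.7 and 79.5, -0.39, SE 0.103, adjusted p = 0.0405 in edgeR's quasi-likelihood test, Benjamini-Hochberg), beside 1.26% of all genes, and 3 had an unadjusted p below 0.05. The call was lost without any 1 of the 4 libraries (adjusted p between 0.178 and 0.567). After 3 h 4 members were lower and 1 was higher, beside 4.41% of all genes lower and 10.5% called in either direction. The members' median log2 fold change at 3 h was -0.33, and 35 of 42 lay below 0.

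The 4 lower members at 3 h of Dex were HNRNPH3, SERBP1, HNRNPDL and HNRNPA1, and the higher one was PABPN1. HNRNPA1 stood at 67.6 and 67.4 CPM (-0.46, SE 0.096, adjusted p = 0.000496 in edgeR's quasi-likelihood test, Benjamini-Hochberg) and kept its call without any 1 of the 4 libraries. HNRNPDL stood at 40.5 and 34.9 CPM against 57.3 and 52.6 (-0.54), HNRNPH3 at 47.1 and 42 (-0.75), SERBP1 at 23.3 and 16.2 (-0.55) and PABPN1 at 52.9 and 69.0 (0.41). HNRNPDL lost its call without replicate 2 of Dex (adjusted p = 0.0602), and HNRNPH3, SERBP1 and PABPN1 lost theirs without replicate 1 of the untreated cells or replicate 2 of Dex, and HNRNPH3 also without replicate 1 of Dex (adjusted p between 0.0752 and 0.472). The 5 calls became 2 without replicate 1 of the untreated cells, 1 without replicate 2 of Dex, 15 without replicate 2 of Dex with MS023, and 0 under scaling by total counts. HNRNPA2B1 and TAF15 were below both untreated libraries at 3 h of Dex (243 and 190, and 127 and 78.9 CPM) without being called (adjusted p = 0.0594 and 0.0515).

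Inhibitors given together with Dex for 3 h were compared with Dex alone. With GSK591 0 members were called, beside 0% of all genes (0 of 22919), and 2 members had an unadjusted p below 0.05 in the edgeR test, while DESeq2 also called 0. With MS023 2 members were called, beside 0.196% of all genes, both higher, and 38 of 42 lay above 0. HNRNPC stood at 22.4 and 31.1 CPM against 16.1 and 17.8 (0.67, SE 0.152, adjusted p = 0.0368 in edgeR's quasi-likelihood test, Benjamini-Hochberg), and HNRNPDL at 49.5 and 64.4 against 40.5 and 34.9 (0.59, SE 0.118, adjusted p = 0.0271). These comparisons rest on replicate 2 of Dex with MS023, which had the larger value for both genes. Without it 0 members were called, and without replicate 1 of the same group 23 were.

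Dex given after 7 days of an inhibitor was compared with that inhibitor alone. At 15 min after GSK591, 3 members were called (2.09% of all genes). HNRNPH1 stood at 136 and 189 CPM against 113 and 115 (0.52) and G3BP2 at 26.5 and 28.6 against 18.7 and 19.8 (0.52), while FXR2 stood at 18.3 and 21.1 against 28.1 in both libraries (-0.51). The members' median was 0.30. Replicate 2 of that Dex group differed from replicate 1, with the members at 0.705% against 0.524% of nuclear counts and mitochondrial genes at 69.8% against 78.2% of all counts, and the pair correlated at r = 0.960 across genes. Its part in these values was not tested beyond leaving it out, which gave HNRNPH1 0.26 (adjusted p = 0.541 in edgeR's quasi-likelihood test, Benjamini-Hochberg). At 3 h after GSK591, 3 members were lower (9.85% of all genes called), namely HNRNPAB (53.2 and 36.7 CPM against 63.2 and 64.5, -0.51), G3BP1 (27.6 and 23.2 against 40.1 and 30.4, -0.48) and CIRBP (63.5 and 62.9 against 79.3 and 81.2, -0.34). After MS023, 2 members were called at 15 min (2.07% of all genes), HNRNPA0 higher (60.5 and 71.4 CPM against 50.1 and 50.4, 0.39) and CIRBP lower (55.2 and 65.6 against 77.2 and 79.3, -0.37). At 3 h after MS023 0 members were called, beside 11.1% of all genes, 6 members had an unadjusted p below 0.05 in the edgeR test, and DESeq2 also called 0. The member calls of these comparisons were each lost without at least 2 of the 4 libraries in turn (adjusted p between 0.0583 and 0.587).

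CIRBP was called lower after Dex in 3 of these settings, without inhibitor at 15 min (-0.39), after GSK591 at 3 h (-0.34) and after MS023 at 15 min (-0.37). In the other 3 settings its log2 fold change was also below 0 and not called. It was -0.26 at 3 h without inhibitor, -0.20 at 15 min after GSK591 and -0.22 at 3 h after MS023. The 3 calls were lost when single libraries were left out, as given above. Under scaling by the total of all or of nuclear genes, 0 members were called in these 3 comparisons. In the authors' deposited tables CIRBP had -0.13 at 15 min of Dex, not called, and -0.49 at 3 h, called lower. The interaction, which is the response to 3 h of Dex after an inhibitor minus that without it, was called for 0 members with GSK591 and 0 with MS023, beside 0.223% of all genes with each, and DESeq2 also called 0. In the edgeR test 5 and 8 members had an unadjusted p below 0.05. The smallest p was that of FXR2 with GSK591 (-0.64, SE 0.197, adjusted p = 0.192 in edgeR's quasi-likelihood test, Benjamini-Hochberg) and of HNRNPC with MS023 (0.71, SE 0.211, adjusted p = 0.164). Of the 42 members, 30 and 38 had a difference above 0.

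The authors' deposited tables differ in gene number from the count table. Symbols listed more than once in a table were left out, and 34 of the 42 members were matched. HNRNPU, KHDRBS1, SFPQ, SERBP1, HNRNPUL2, TARDBP, YBX1 and HNRNPR were not matched there. All of these but HNRNPUL2 lie on chromosome 1, where no matched member lies, and the reason was not tested. Lower at 2, 4 and 7 days of GSK591 in the authors' deposited tables were 12, 21 and 21 of 34 members, beside 9.16%, 14% and 13% of their genes with an adjusted p. With MS023 the authors' deposited tables list 14, 25 and 19 as lower, beside 9.26%, 12.3% and 12.3%. For 3 h of Dex the authors' deposited table has 8 lower, beside 11%, and for 3 h of Dex after GSK591 or MS023 against untreated cells 27 and 24, beside 18.5% and 16.3%. At 7 days, 13 of the 15 members called lower on the counts with GSK591 and 12 of 12 with MS023 were also lower in the authors' deposited tables.

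Single members differed more between the 2 sources. HNRNPA2B1 had -1.22 and -1.28 at 7 days of GSK591 and MS023 in the authors' deposited tables, close to the values from the counts. HNRNPM had -0.64 and -0.50 there, against -1.25 and -1.74 from the counts. FXR2, higher with GSK591 on the counts, had 0.20 at 4 days in the authors' deposited table (adjusted p = 0.277) and was higher there at 3 h of Dex (0.56). HNRNPAB, called on the counts at 4 days of GSK591 alone, was lower in the authors' deposited tables at 4 and 7 days of GSK591 and 4 days of MS023 (-1.31, -0.64 and -0.71).

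**Figure D4:**
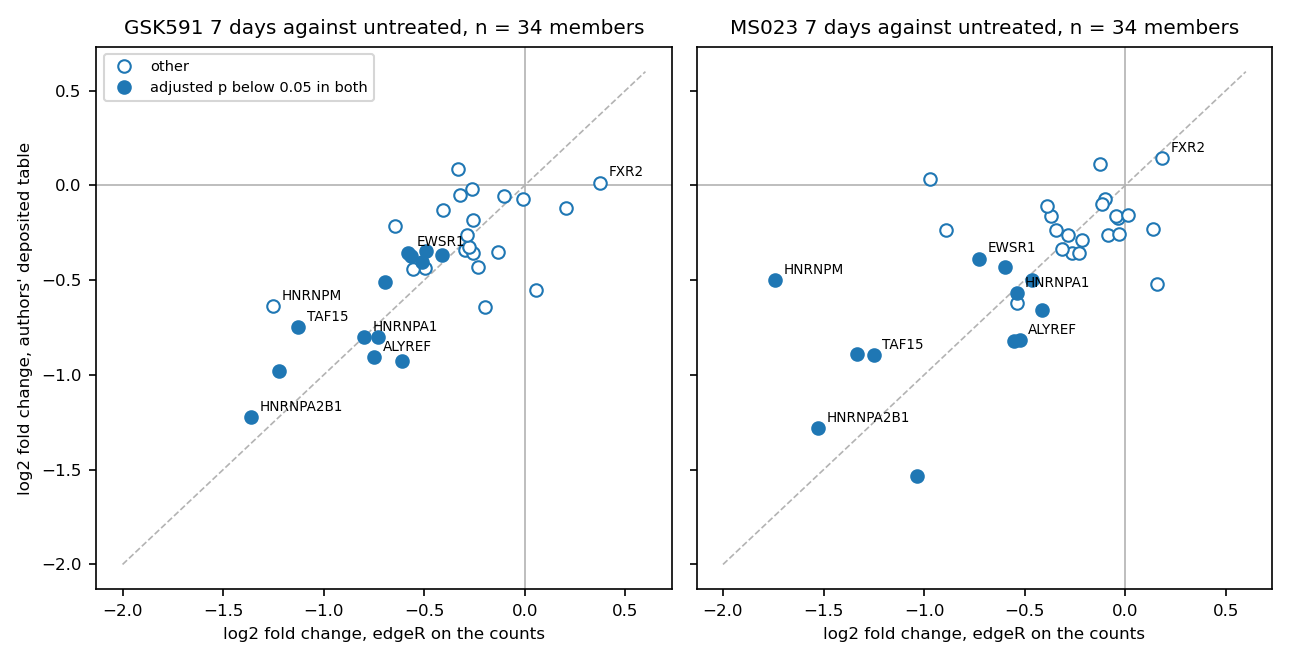
Log2 fold change at 7 days of GSK591 (left) and MS023 (right) against untreated cells for the 34 members in both sources, from edgeR on the counts (x axis, TMM scaling) and from the authors' deposited tables (y axis); filled points have an adjusted p below 0.05 in both, and the dashed line marks equal values. HNRNPA2B1 lies near the line in both panels, and HNRNPM lies above it, at -1.74 against -0.50 with MS023.

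Neighbouring genes of the same biology were read from 2 other lists. Of 18 arginine methylation genes (enzymes, cofactors and readers), 15 were tested. At 7 days 0 were higher and 2 were lower with GSK591 (PRMT3 by 0.55 and PRMT1 by 0.50 on the log2 scale), and 0 and 3 with MS023 (RIOK1 by 0.75, PRMT3 by 0.43 and PRMT1 by 0.33). Of 31 further RNA-binding protein genes, 29 were tested, and 0 were higher and 8 lower at 7 days of GSK591, and 1 and 9 with MS023 under TMM. For both lists, the shares of all genes called lower at 7 days were 6.52% with GSK591 and 6.51% with MS023. The nucleolar proteins NCL (-1.24 and -1.66) and FBL (-0.93 and -1.23) and the A/B-type hnRNP HNRNPA3 (-1.15 and -1.13) were lower with both inhibitors at 7 days under TMM. The median log2 fold change of this list at 7 days was -0.37 with GSK591 and -0.32 with MS023, between those of the members and of all genes.

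Across the 42 members the mean log2 fold change over the 6 inhibitor comparisons varied little with gene properties. Pearson's r was -0.178 with log2 gene length, -0.051 with log2 exonic length and -0.174 with log2 untreated level per kb (Spearman's rho -0.0434, -0.0299 and -0.072), as a description across genes, which share libraries and are not independent replicates.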

How the data were processed

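PRO-seq libraries of A549 cells (15 groups of 2) were analysed from a table of raw read counts per gene that the authors deposited, made with featureCounts 2.0.1 of Subread on hg38, per the submitters' processing notes. The aligner, the counted feature and the use of strand are not given in the sources used here. The authors' deposited comparison tables hold a log2 fold change, a p-value and an adjusted p-value per gene, and a mean signal of normalised counts over samples, under column names that DESeq2 writes, per the file headers. They differ in gene number from the count table, and how their counts were made is not given in the sources used here.

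Groups came from the labels. Libraries were scaled by TMM, genes were kept by filterByExpr (minimum count 10, minimum total 15), and 22919 genes were fitted with edgeR 4.0.16 (R 4.3.3) over all 15 groups (15 residual degrees of freedom, common biological coefficient of variation 10.62%). Quasi-likelihood tests of 21 comparisons were adjusted by Benjamini-Hochberg over all genes tested, each comparison on its own, with a threshold of 0.05. Most comparisons share control libraries. An exact permutation test of 2 against 2 cannot go below 0.333. With median total counts of 10141640 per library and 26 to 4198 counts per member, counting error is largest for FMR1, HNRNPH2 and HNRNPUL2. Gene positions, lengths and exon overlaps came from GENCODE 29 (hg38), to which all 58780 gene IDs matched. The members and lists were chosen with earlier results of these data known. Full statistics are given for up to 5 called members with the largest change in each direction per comparison, and those of HNRNPH1, RBM3, HNRNPA1 and ALYREF outside that rule were chosen after their values were seen. Other list genes named are called ones with the largest change. One listed gene, MATR3, has 2 IDs and was left out.

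Replicate numbers were not taken to pair the libraries: over 105 pairs of groups, deviations of same-numbered libraries correlated at -0.485 to 0.537, and 26 pairs were above 0.1. Alternatives were DESeq2 size factors, scaling by the total of all or of nuclear genes, no filter (53080 genes), DESeq2 1.42.0, only the groups compared, a replicate block, leaving out mitochondrial and ribosomal RNA genes (22335 genes left), adding named pseudogene counts, and leaving out each library. Leaving out replicate 2 of Dex with MS023 from every comparison was added after seeing the data. Tested on simulated data (22919 genes, 200 changed), the fit called 6.15%, 54.1% and 74.6% of log2 changes of 0.5, 1 and 2 in the comparison of GSK591 at 7 days, 11.1%, 46.2% and 82.5% for MS023 at 7 days, and 1.61%, 20.3% and 71.4% for the interaction with GSK591.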

Additional observations from a re-analysis of the deposited data

Results flagged for a closer look

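Tests of the difference between groups gave 8 member values past the threshold in edgeR's quasi-likelihood test with Benjamini-Hochberg adjustment. Between the inhibitors, HNRNPA0 was lower with GSK591 than with MS023 by -0.46, -0.39 and -0.37 (log2) at 2, 4 and 7 days. HNRNPA1 had a difference of -0.33 at 4 days, which was not called when pseudogene counts were added, and HNRNPL one of -0.31 at 7 days. Between times, ALYREF differed by -0.71 from 2 to 7 days of GSK591 and by -0.52 over the same span of MS023. RBMX differed by -0.67 from 2 to 7 days of MS023 and was the one value of these 8 still called when any 1 of the 4 libraries compared was left out. Under scaling by the total count of all genes RBMX was not called, as 0 members were in that comparison.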

How the results depend on the processing

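Under scaling by the total count of all genes, 0 members were called for Dex at 15 min, 0 for Dex at 3 h, 1, 5 and 5 for GSK591 at 2, 4 and 7 days, 9 for MS023 at 4 days, 4 for MS023 with Dex, and 0 for Dex after GSK591 at 15 min and 3 h and after MS023 at 15 min. The same scaling gave 2 and 38 for GSK591 against MS023 at 2 and 7 days, 3 for GSK591 from 2 to 7 days and 0 for MS023 from 2 to 7 days. At 2 and 7 days of MS023 the counts of 13 and 22 were all of members higher, where TMM gave 12 and 16 lower. These counts are not set against the share of all genes called under this scaling, which is not given here. Under scaling by nuclear counts, 0 members were called for Dex at 15 min, 8, 12 and 9 for MS023 at 2, 4 and 7 days, 0 for Dex 3 h after GSK591, 0 for Dex 15 min after MS023, and 2 and 11 for GSK591 against MS023 at 2 and 7 days. With no filter on low counts, the counts were 0 and 11 for Dex at 15 min and 3 h, 9 for MS023 with Dex, 1 for Dex 15 min after MS023, 1 for the interaction with MS023 and 2 for GSK591 from 2 to 7 days.

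Fitting only the groups compared gave 15 for Dex at 3 h, 21 for GSK591 at 2 days, 23 and 28 for MS023 at 2 and 7 days, 0 for MS023 with Dex, 1 and 9 for Dex 15 min and 3 h after GSK591, 3 for the interaction with MS023, 3, 7 and 4 for GSK591 against MS023 at 2, 4 and 7 days, and 7 and 10 for GSK591 and MS023 from 2 to 7 days. DESeq2 gave 1 for Dex 15 min after GSK591, 1 and 1 for GSK591 against MS023 at 4 and 7 days, and 0 and 1 for GSK591 and MS023 from 2 to 7 days. Adding pseudogene counts gave 1 for GSK591 against MS023 at 4 days. The causes of these changes were not tested. For Dex 3 h after MS023, where 0 members were called, 1 was called with DESeq2 size factors, without mitochondrial and ribosomal RNA genes, with pseudogene counts added and with the replicate block. The replicate block moved no other count by over 1.5 times, with 28 members called at 4 days and 22 at 7 days of GSK591.

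Leaving out 1 library in turn, members called ranged from 0 to 1 for Dex at 15 min, 1 to 15 for Dex at 3 h, 2 to 17, 15 to 33 and 10 to 25 for GSK591 at 2, 4 and 7 days, and 1 to 19, 8 to 30 and 9 to 22 for MS023. They ranged from 0 to 0 for GSK591 with Dex and 0 to 23 for MS023 with Dex, 0 to 3 and 0 to 6 for Dex 15 min and 3 h after GSK591, 0 to 2 and 0 to 2 for Dex 15 min and 3 h after MS023, and 0 to 2 and 0 to 1 for the interactions with GSK591 and MS023. They ranged from 0 to 1, 0 to 2 and 0 to 3 for GSK591 against MS023 at 2, 4 and 7 days, 0 to 1 for GSK591 and 1 to 3 for MS023 from 2 to 7 days. Where this left a group with 1 library, that library was assumed to vary like the other groups. Of 58 member values examined under the alternatives, 10 stayed called under every left-out library and 13 under every other setting, and none of these 58 changed sign. These 58 were the called members with the largest changes, up to 5 in each direction per comparison. A sign kept by values chosen for their size is not a check for the other members. Other members' values did change sign under scaling by total counts. Members below 0 at 2, 4 and 7 days of MS023 went from 34, 39 and 38 to 8, 10 and 5. With 2 libraries a group, log2 changes of 0.5 were called in 6.15% of simulated cases for GSK591 at 7 days, a share over all genes tested and not for the members. The simulation changed 200 of 22919 genes, whereas 3026 were called in that comparison of the data. Adjusted p-values depend on how many genes change, so the simulated share need not hold in the data.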
